A study of Mus musculus with 39 samples.

Results

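The glucocorticoid receptor (GR) was compared between cells given dexamethasone (Dex) and cells given dexamethasone with estradiol (E2), in 7438 mouse mammary cells that carry Afos. The comparison rests on 4 lists of called GR sites, 2 replicates with Dex and 2 with Dex+E2, chosen by their sample labels from the 39 samples of the study, 24 of which had a list. Both groups received 100 nM Dex for 30 min, and the Dex+E2 group received 100 nM E2 in the same 30 min. In all 4 samples GR fused to GFP, the estrogen receptor (ER) fused to Cherry and Afos were expressed from tetracycline-regulated transgenes, after tetracycline had been withdrawn and in hormone-depleted serum. The same antibody cocktail against GR was used throughout. GR and ER thus came at least in part from transgenes, in 1 engineered line. The labels do not say whether replicates were separate cultures, so any p-value measures only the spread between these samples.

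GR and ER are steroid-activated transcription factors of the nuclear receptor family. On binding their ligands, dexamethasone as a synthetic glucocorticoid for GR and estradiol for ER, they occupy response elements in chromatin, mostly at enhancers far from promoters. In mammary cells AP-1 factors of the Fos and Jun families are known to hold open many of the places that GR enters. The labels do not describe Afos further; the protein known in the field as A-Fos is a dominant-negative partner of Jun that keeps AP-1 off DNA. Estradiol is not a ligand of GR, so the comparison asks what an active ER changes for a GR that is already ligand-bound.

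Each row of a list is a called site with its highest tag density, a measure of how many sequenced fragments pile up there. The sources used here do not give how tag density was scaled, so a site is described by its percentile within its own list, from 0 for the weakest site to 100 for the strongest. The Dex lists held 8873 and 5136 sites and the Dex+E2 lists 14160 and 10309, in the order of the replicates. The shortest Dex+E2 list thus exceeded the longest Dex list. With 2 lists a group the exact two-sided permutation test gave p = 0.33, the smallest it can give. The shape of the lists was alike. The median site had a highest tag density of 17.4 and 16.2 with Dex and of 15 and 15.4 with Dex+E2. The strongest site reached 621 and 360 with Dex, and 653 and 434 with Dex+E2. Read totals are not in the lists, so depth is unknown.

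Merging overlapping sites of the 4 lists gave 15930 regions. Of these, 4731 regions (29.7%) were in all 4 lists and 2304 (14.5%) were in both Dex+E2 lists and no Dex list. The mirror class, both Dex lists and no Dex+E2 list, held 23 regions (0.144%). Regions of a single Dex+E2 list numbered 4637, against 588 of a single Dex list. The lists of the treatments also differ in length, and for counts of unshared sites length and treatment cannot be told apart.

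When same-numbered lists were set against each other, most sites that only Dex+E2 gave were weak calls, with a strong minority among them. In replicate 1, 6344 sites were only in the Dex+E2 list, with a median percentile of 33.4 against 64.4 for the 7816 shared ones. In replicate 2 the 5400 sites of Dex+E2 alone had a median percentile of 31.4, against 72.9 for 4909 shared ones. The authors' z-score, their measure of a site against its background, was at least 15 for 59.2% and 53.0% of these unshared sites, and for 87.0% and 92.6% of the shared ones. Unshared sites were also narrower, with median widths of 533 and 507 bp against 657 and 690 bp. In both replicates, then, the typical site called only with both hormones lay in the lower part of its list.

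The strong minority existed on the Dex+E2 side and was nearly missing on the Dex side. At or above percentile 80 of their own list, 458 sites of Dex+E2 replicate 1 and 169 of replicate 2 were absent from the same-numbered Dex list. The replicate Dex+E2 list held 447 of the 458 and all 169, so nearly all of these strong sites were called in both libraries of the treatment. In the opposite direction, 3 sites of Dex replicate 1 and 1 site of Dex replicate 2 were that strong and missing from the same-numbered Dex+E2 list. Dex replicate 2 is the shorter Dex list, and 61 of the 169 sites missing from it were present in Dex replicate 1.

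The share of sites found again was higher in the strongest than in the weakest decile in every pairing, and at the strong end it stayed lowest from Dex+E2 towards Dex. Sites were divided into 10 classes (deciles) of near equal size by highest tag density. Among the strongest decile of Dex+E2 replicate 1, 99.9% of sites were in Dex+E2 replicate 2 and 88.3% in Dex replicate 1. Among the strongest decile of Dex+E2 replicate 2, all 1032 were in Dex+E2 replicate 1, and 95.3% were in Dex replicate 2. The strongest decile of the Dex lists was found again at 100% and 99.8% in the same-numbered Dex+E2 lists. In the next decile down, 79.4% and 88.2% of Dex+E2 sites were in the Dex list, against 99.1% and 100% in the replicate. In the weakest decile the same-treatment shares fell too, to 25.3% for replicate 1 and 72.8% for replicate 2; at weak sites, absence from a list was common even between replicates. The plot of recovery by decile shows this gap at the strong end.

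**Figure D1:**
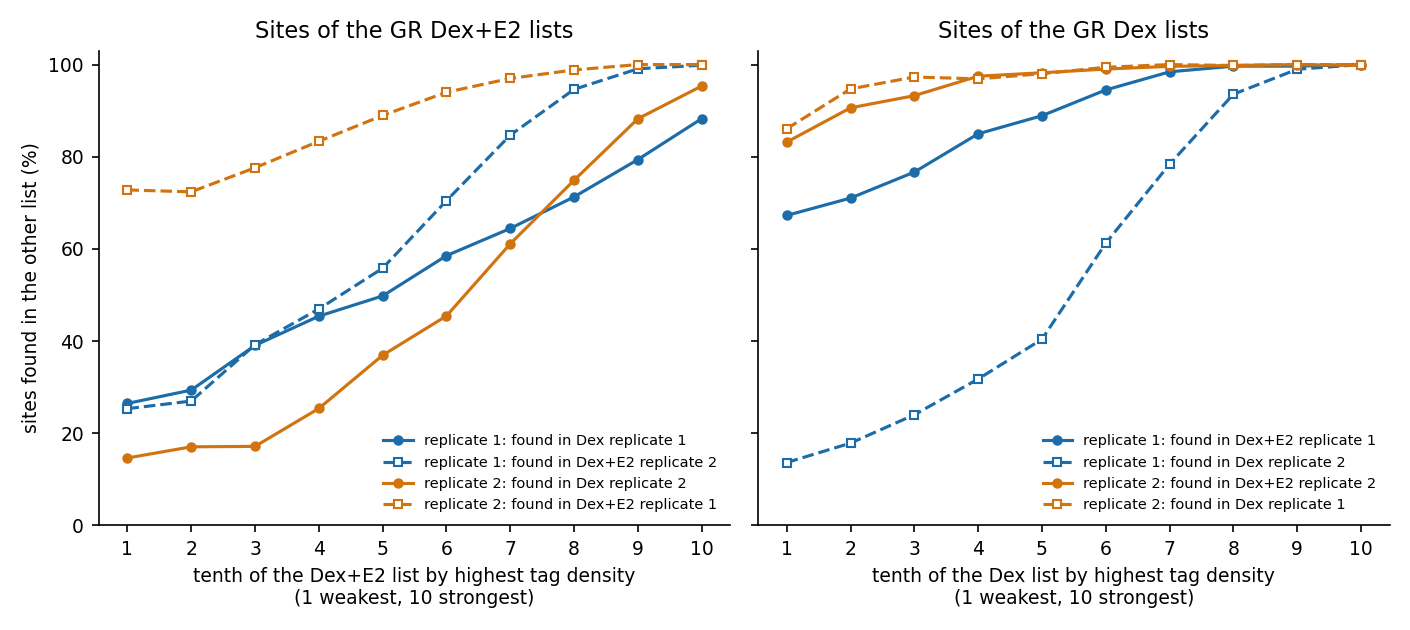
Share of GR sites found in another list (y axis, %) by decile of the own list ordered by highest tag density (x axis, 1 weakest to 10 strongest), for the Dex+E2 lists (left) and the Dex lists (right). Filled points and solid lines mark the same-numbered list of the other treatment, open squares and dashed lines the other replicate of the same treatment. At the strongest decile the solid lines reach 88.3% and 95.3% on the left, and 100% and 99.8% on the right.

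Reproducible sites, those overlapping in both lists of a treatment, were used to describe the gained class more closely. Gained sites are the 2304 of the 9084 reproducible Dex+E2 sites (25.4%, exact binomial 95% interval 24.5 to 26.3%) that overlap no site of either Dex list, and the others are called kept. Of the kept sites, 4732 were in both Dex lists, 1996 in Dex replicate 1 only and 52 in Dex replicate 2 only. The gained share rose to 47.3% without Dex replicate 1 and to 44.3% without Dex+E2 replicate 2. The latter is a share of all 14160 sites of Dex+E2 replicate 1. Here and below, where 1 of the 2 lists that define reproducible sites is left out, all sites of the other list are counted. Intervals cover counting error only.

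Gained sites stood lower than kept sites, and the size of the gap depended on the library. Their median percentile was 59.8 in Dex+E2 replicate 1 and 32.4 in replicate 2, against 69.6 and 63.5 for kept sites. The mean gap was 20.4 percentile points. It was 32.6 without Dex+E2 replicate 1, over all sites of Dex+E2 replicate 2. Sites kept in only 1 Dex list were about as weak as the gained ones, with medians of 48.8 in replicate 1, below the gained sites, and 37.4 in replicate 2, above them. The 4732 sites kept in both Dex lists stood at 77.7 and 73.9.

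A mean percentile of at least 80 over the 2 Dex+E2 lists was reached by 202 gained sites (8.77%), against 2024 kept sites (29.9%). Of these gained sites, 63 reached 90 and 23 reached 95. Their highest tag density was never below 29.4 in replicate 1 and 21.0 in replicate 2, a high minimum that follows from the choice of strong sites. The medians of the Dex lists were 17.4 and 16.2, and how densities scale between lists is not known. The count was 108 without Dex+E2 replicate 1 and 457 without Dex+E2 replicate 2, both over all sites of the list left. With equal numbers of sites per list it was 62, and with a z-score of at least 15 it was 122. To bring the densities of all gained sites to a common scale, the ratio of Dex+E2 to Dex was taken at the 3641 regions of all 4 lists that no Afos ER list with E2 or Dex+E2 touched, with a median of 0.893 in replicate 1 and 1.31 in replicate 2. After division by it, 1365 of the 2304 gained sites (59.2%) lay above the median density of Dex replicate 1. Above that of Dex replicate 2 lay 272 (11.8%). For kept sites these shares were 70.6% and 45.2%. All 202 strong gained sites lay above the median in replicate 1, and 201 in replicate 2. Their choice as strong sites all but fixed this, as their lowest densities after the division were 32.9 and 16.1. Of the 272 gained sites above the Dex median in both replicates, 245 (90.1%) held a reproducible ER site with Dex+E2. At the 2032 others the share was 38.4%.

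The strong gained sites were, with few exceptions, ER sites. In this and the following comparison ER lists are a separate readout that was not used to form the classes, and the higher ER share of gained sites was already known from these data. What strength adds is a gradient. Below mean percentile 20 a reproducible ER site with Dex+E2 lay at 12.1% of gained GR sites (39 of 322, interval 8.76 to 16.2%) and at 0.238% of kept ones (1 of 421). Between 40 and 60 the shares were 42.6% and 2.33%. From 80 upward they were 96.0% (194 of 202, 92.3 to 98.3%) and 27.6% (559 of 2024, 25.7 to 29.6%). In every one of the 5 strength classes the interval of gained sites lay above that of kept sites. Over all strengths the difference was 34.4 percentage points, and it was 15.8 without Dex replicate 1. Without Dex+E2 replicate 2, over all sites of Dex+E2 replicate 1, it was 15.1. With each pair of same-numbered lists taken alone, over all sites, the difference was smaller, at 14.8 and 10.8 points. Among strong sites it was wide in both. ER was at 391 of the 458 strong sites that Dex replicate 1 lacked (85.4%), and at 156 of the 169 that Dex replicate 2 lacked (92.3%). At the strong sites shared with the same-numbered Dex list the shares were 25.1% and 24.8%.

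Lists of ER with E2 alone, which come from other libraries than the Dex+E2 samples, followed the same order. A reproducible ER site with E2 lay at 18.3% of the weakest and 81.7% of the strongest class of gained sites (165 of 202). For kept sites these shares were 0.475% and 11.2%. Of the 1026 gained sites with ER under both hormones, 794 had ER with E2 alone and 232 did not, with median percentiles of 60.7 and 60.2. The first set reached further up: 164 of the 794 (20.7%) were strong and 61 reached percentile 90, against 30 (12.9%) and 2 of the 232. Another 135 gained sites had ER only with E2 alone and stood at 32.4. ER untreated or Dex lists touched 2 and 3 of the 2304 gained sites.

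ER was itself strong where GR was strongly gained. In the ER Dex+E2 lists, the sites overlapping strong gained GR sites had median percentiles of 96.4 and 91.7 of their own lists. The ER sites at strong kept GR sites stood at 71.4 and 64.3. With E2 alone the values were 95.9 and 94.9 at strong gained, and 74.0 and 74.3 at strong kept sites. Across the 1609 and 1028 gained sites with ER in a Dex+E2 list, GR and ER percentiles of the same replicate rose together (Spearman rho 0.68 and 0.61). They also rose together across the 1422 and 720 kept sites with ER there (rho 0.54 and 0.41). These are descriptions over sites, each of 1 pair of libraries, given with no test. The points share their libraries.

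GR lists with E2 alone, in which GR has no added ligand, also touched these sites. Of the strong gained GR sites 43.6% (88 of 202, interval 36.6 to 50.7%) overlapped a GR site of at least 1 E2 list, against 2.67% of strong kept sites. The replicates differed: E2 lists 1 and 2 singly held 43.1% and 25.2% of strong gained sites, and 2.62% and 0.840% of strong kept sites. Over all strengths, at least 1 E2 list held 11.3% of gained and 0.929% of kept sites. Lists 1 and 2 singly held 11.2% and 3.86% of gained sites, and 0.900% and 0.339% of kept sites. The untreated GR lists went the other way, at 0.217% of gained and 2.42% of kept sites.

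**Figure D2:**
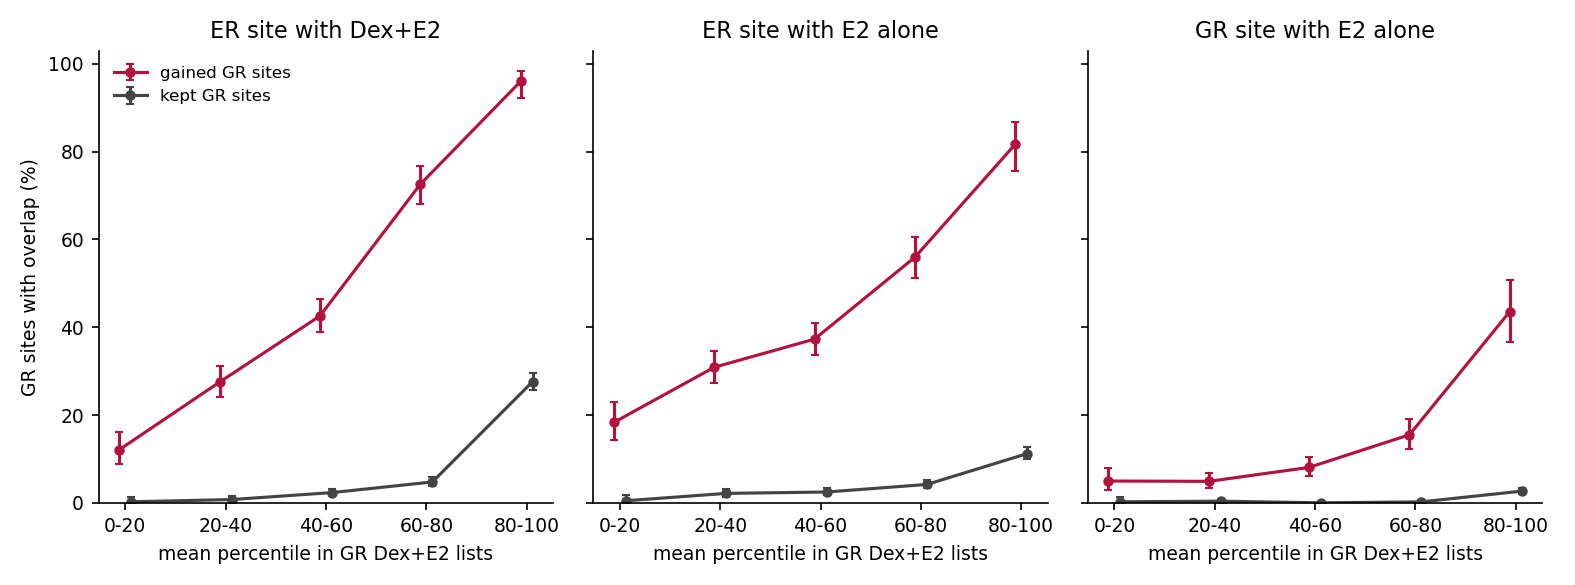
Share of gained (red) and kept (grey) GR sites (y axis, %) that overlap a reproducible ER site with Dex+E2 (left), a reproducible ER site with E2 alone (middle) or a GR site of at least 1 list with E2 alone (right), by mean percentile in the GR Dex+E2 lists (x axis). Bars are exact binomial 95% intervals; in the strongest class gained sites reach 96.0%, 81.7% and 43.6%, and kept sites 27.6%, 11.2% and 2.67%.

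Gained sites without ER in the Afos lists were mostly weak, though not all weak gained sites lacked ER. Below mean percentile 20, 112 of the 322 gained sites (34.8%) overlapped an Afos ER list with E2 or Dex+E2. No list of ER with E2 or Dex+E2 touched 658 of the 2304 gained sites. Their median percentile was 33.4 in replicate 1 and 21.5 in replicate 2, and 22.3% had a z-score of at least 15 in both lists. Only 1 of the 658 reached a mean percentile of 80. Its position was chromosome 12 (8395309 to 8395984 in mm9), and its densities peaked at 33.5 and 28.6. Chromosome 15 held the next (66775780 to 66776506), at 38.6 and 17.1. The third was on chromosome 8 (10606307 to 10606926), at 20.8 and 22.8, and it was in the ER E2 list of 7438 cells without Afos. That list touched 46 of the 658, and the Afos ER untreated and Dex lists touched 1 each.

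The strongest gained sites had all 4 ER lists in common. Beyond the leading sites on chromosomes 10 and 6, the fourth strongest lay on chromosome 16 (21827957 to 21829002), and its Dex+E2 densities peaked at 177 and 76.6. A site of chromosome 11 (50485995 to 50486877) came next, at 128 and 83.4. Then came chromosome 14 (19549164 to 19550270), at 165 and 73.5, and chromosome 8 (12592025 to 12593020), at 178 and 70.6. The eighth was again on chromosome 11 (73017144 to 73018083), at 125 and 75.5. By the definition of gained sites, none of these positions was called in the Dex lists. The weakest sites listed there had densities of 1.41 and 1.42, and the 10th percentiles of density were 9.39 and 9.31. All 8 strongest gained sites, those on chromosomes 10 and 6 included, overlapped ER in both E2 and both Dex+E2 lists, and ER stood at percentile 97.7 or higher in each. All 8 were in GR E2 replicate 1 and 7 were in GR E2 replicate 2, the exception being the chromosome 10 site. None was in an untreated GR list, and the GR Dex list of 7438 held 2 of the 8.

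Lists of 7438 cells without Afos gave a further contrast. The GR Dex list of 7438, in which every site is 150 bp wide and which was called differently, held 85.8% of kept sites (85.0 to 86.6%) and 20.3% of gained sites (18.6 to 22.0%). Among strong sites the shares were 97.8% and 20.8% (42 of 202). For kept sites the share rose with strength from 53.9% to 97.8%. For gained sites it stayed between 18% and 22.4% over the 5 strength classes. Of the 658 gained sites outside the Afos ER lists with E2 or Dex+E2, the 7438 Dex list held 39.5% (260). With E2 alone, the ER list of 7438 held 44.5% of gained and 10.9% of kept sites.

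Gained and kept sites were interspersed along the genome. The median distance from a gained site to the nearest kept site was 44.5 kb, and 21.6% lay within 10 kb of one. A kept site had its nearest other kept site at a median of 37.7 kb, with 27.0% within 10 kb. Strong gained sites were closer to kept ones, at a median of 21.1 kb and with 33.7% within 10 kb. The gained share by chromosome, with chromosome 18 not used here, ran from 20.8% on chromosome 13 (91 of 438) to 30.7% on chromosome 11 (192 of 625).

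Sites lost with both hormones were few when all lists were used in full, and they were weak. Of the reproducible Dex sites 99.5% were kept, a share that was 91.2% with equal numbers of sites per list. Without Dex replicate 2, when all 8873 sites of Dex replicate 1 were counted, 93.5% were kept. The 23 reproducible Dex sites in neither Dex+E2 list had median percentiles of 18.9 and 13.1 in the Dex lists, and none reached a mean of 80. The leading one was on chromosome 17 (28551006 to 28551509), at percentiles 69.7 and 61.0. The second, on chromosome 6 (94636546 to 94637097), stood at 44.0 and 33.5. The third, on chromosome 17 (71059514 to 71060101), stood at 51.7 and 23.3. All 3 were in the GR Dex list of 7438 and none was in an ER list with E2 or Dex+E2.

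At the 4731 regions in all 4 lists the rank of GR sites could be compared directly. Here percentiles were taken among these regions alone, so lists of different length share 1 scale. Being present in every list favours strong sites, and these regions exclude the gained sites by definition. The orders of the lists were alike across treatments. Spearman rho was 0.85 in both same-numbered pairs of Dex and Dex+E2, 0.89 between the Dex replicates and 0.84 between the Dex+E2 replicates. The median region moved by 8.05 and 7.96 percentile points from Dex to Dex+E2, by 7.06 between Dex replicates and by 9.12 between Dex+E2 replicates. Across the numbers, Dex replicate 2 and Dex+E2 replicate 1 differed by 10.6 points (rho 0.77), more than any replicate pair, and Dex replicate 1 and Dex+E2 replicate 2 by 7.70 (rho 0.86). The changes of the 2 replicates, which share no list, had a rho of 0.21 across regions.

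In the fit without a replicate block no single region passed the test for a change of rank. With limma on normal scores of the ranks and Benjamini-Hochberg adjustment, 0 of 4731 regions were called (0%), and the lowest adjusted p was 0.0664. At an unadjusted p under 0.05 there were 371 regions, 265 higher with Dex+E2 (5.6% of all) and 106 lower (2.24%). In 812 regions (17.2%) both Dex+E2 percentiles lay above both Dex percentiles, and in 965 (20.4%) both lay below. With 2 lists against 2, such separation is common even without a treatment effect, so neither count alone shows one. With log2 density in place of ranks limma called 11 regions, all higher with Dex+E2 and all with a reproducible ER site under both hormones.

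The regions that moved up were ER regions more often than regions in general. A reproducible ER Dex+E2 site lay at 542 of the 4731 regions (11.5%). It lay at 332 of the 812 regions whose groups were separated upward (40.9%), and at 25 of the 965 separated downward (2.59%). Of the 265 regions with an unadjusted p under 0.05 for a rise, 157 had ER (59.2%), and of the 106 for a fall, 0 had it. Seen from the ER side, 61.3% of ER regions were separated upward and 4.61% downward, against 11.5% and 22.4% of regions without ER. Ranks are relative, so regions passed by risers move down without any change of their own.

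The median ER region rose by 7.07 points in replicate 1 and by 6.16 in replicate 2, and the median region without ER moved by -2.23 and -1.23. In highest tag density the Dex+E2 to Dex ratio had a median of 1.45 and 1.84 at ER regions and of 0.921 and 1.34 elsewhere. The 206 regions with ER under both hormones and with E2 alone rose by 10.7 and 10.8 points. The 336 regions where ER was reproducible only under both hormones rose by 5.33 and 4.55. In the 36 regions with reproducible ER only with E2 alone the replicates differed, at -0.16 and 11.2. Regions that no Afos ER list with E2 or Dex+E2 touched numbered 3641 and moved by -3.40 and -1.93. With the change averaged over the replicates, the medians of ER regions and others differed by 9.36 points, and it ranged from 7.67 to 10.6 when each of the 4 lists was left out.

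**Figure D3:**
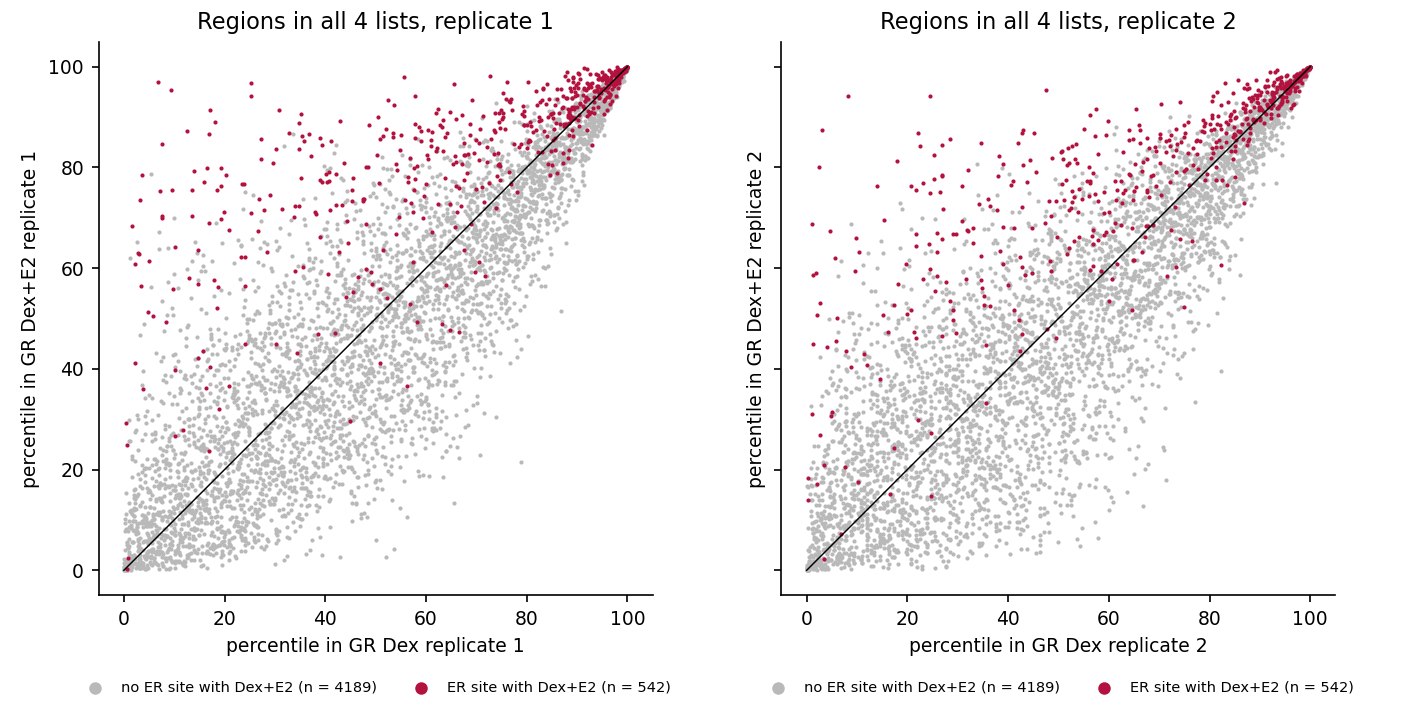
Percentile of highest tag density among the 4731 regions in all 4 lists, with Dex (x axis) and Dex+E2 (y axis), for replicate 1 (left) and replicate 2 (right). Each point is a region; red points, the 542 regions with a reproducible ER site under Dex+E2, lie mostly above the diagonal of equal rank, and 72.5% of them rose in both replicates against 19.5% of the grey ones.

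The rise of ER regions was large where GR had been weak with Dex and small where it had been strong. In the lowest of 5 classes of Dex percentile, 47 ER regions rose by a median of 53.9 and 35.2 points, while 801 regions without ER moved by 2.21 and 1.85. In the middle class the 86 ER regions rose by 26.0 and 21.5 points, against -3.98 and -3.82 for the others. In the highest class the 251 ER regions moved by 0.909 and 0.962 points, and the 662 others by -3.08 and -1.10. Of the ER regions in that class 55.0% rose in both replicates, against 6.50% of the others, and 97 of the 251 (38.6%) were separated upward, against 2.11%. A region near percentile 100 cannot rise further. The classes were formed on Dex percentiles, which also enter the change.

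**Figure D4:**
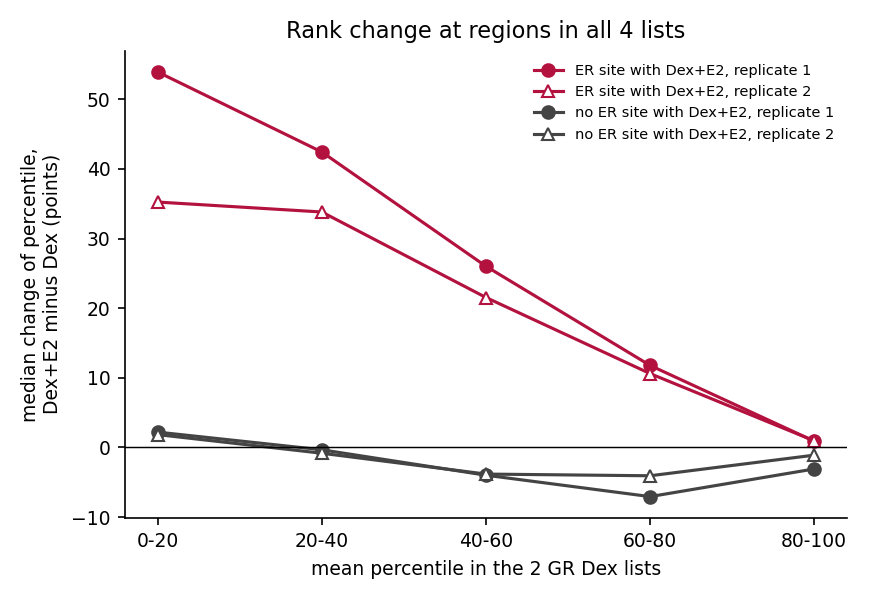
Median change of percentile from Dex to Dex+E2 in points (y axis), by mean percentile of the region in the 2 Dex lists (x axis), for regions with (red) and without (grey) a reproducible ER site under Dex+E2. Circles are replicate 1 and triangles replicate 2; ER regions of the lowest class rose by 53.9 and 35.2 points, those of the highest by 0.909 and 0.962.

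The 5 largest rises took regions from the lower to the upper part of the order. The first lay on chromosome 15 (85812027 to 85813063), with highest tag densities of 12.6 and 9.47 with Dex and of 145 and 92.9 with Dex+E2. Its percentiles were 6.81 and 8.29 with Dex and 96.9 and 94.2 with Dex+E2. The limma effect was 3.16 ± 0.25 normal-score units (SE), and its adjusted p was the 0.0664 given above. The second, on chromosome 9 (121026976 to 121027931), went from 9.33 and 2.41 to 95.3 and 80.1. The third, on chromosome 11 (77596356 to 77597732), went from 18.1 and 3.09 to 89.0 and 87.4. The fourth lay on chromosome 1 (72190752 to 72191626) and the fifth on chromosome X (33899539 to 33900268). They rose by 70.9 and 68.0 points on average, and the fifth ended at percentiles 75.3 and 68.9. The adjusted p of limma was 0.209 for each of these 4. All 5 overlapped ER in both E2 and both Dex+E2 lists, and those on chromosomes 9 and 11 were also in both GR E2 lists.

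The 5 largest falls were smaller and had no ER. The first, on chromosome 8 (113900510 to 113901280), stood at percentiles 65.1 and 66.9 with Dex and at 48.4 and 12.7 with Dex+E2. The second, on chromosome 10 (12530148 to 12530995), went from 36.7 and 60.4 to 13 and 14.5. The third, on chromosome 19 (27334709 to 27335727), went from 68.9 and 77.1 to 46.0 and 33.5. The fourth was on chromosome 12 (17600454 to 17601157) and the fifth on chromosome 10 (12507536 to 12508186), not far from the second. Their mean changes were -32.8 and -32.7 points. The lowest adjusted p of these 5 was 0.324 in limma. None overlapped an ER list with E2 or Dex+E2, and all 5 were in the GR Dex list of 7438. Of all 4731 regions, 77.0% overlapped no such ER list and 93.3% were in that GR Dex list, so both traits were common. The mean change of the first was -53.2 points without Dex+E2 replicate 1 and -17.5 without Dex+E2 replicate 2.

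**Figure D5:**
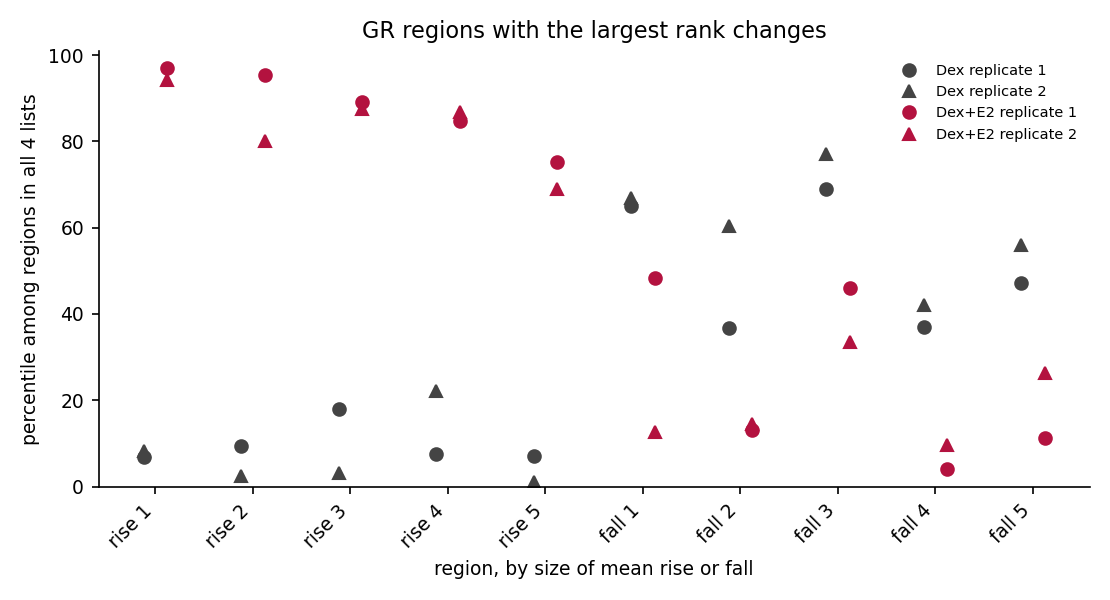
Percentile among the 4731 regions in all 4 lists (y axis) for the 5 regions with the largest mean rise and the 5 with the largest mean fall (x axis), chosen among regions whose treatments do not overlap. Grey marks are Dex and red marks Dex+E2, circles replicate 1 and triangles replicate 2; the first rise goes from 6.81 and 8.29 to 96.9 and 94.2.

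Widths followed densities and gave no separate call. Within each list width and highest tag density were closely related (Spearman rho 0.84 to 0.86 across sites). The median site was 598 and 570 bp wide with Dex and 602 and 592 bp with Dex+E2, a difference of 13 bp (exact permutation test, two-sided, p = 0.667). Without Dex replicate 2 the difference was -1 bp. At the 4731 shared regions the median log2 width ratio of Dex+E2 to Dex was 0.016 for the first pair of lists and 0.23 for the second, whose Dex list had the narrowest sites. With log2 width centred within each list, limma gave 210 wider and 29 narrower regions at an unadjusted p under 0.05. In limma on log2 width without centring, 0 regions passed Benjamini-Hochberg adjustment (0%, lowest adjusted p 0.421). At an unadjusted p under 0.05 there were 220 wider (4.65%) and 1 narrower (0.0211%). Leaving out Dex replicate 1 gave 178 wider and 0 narrower regions, the narrow Dex replicate 2 then being the lone Dex list.

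Without a test of their own, widths separated more often towards the wider side. In 1463 regions (30.9%) both Dex+E2 widths exceeded both Dex widths, and in 56 (1.18%) both were smaller. These widths were not centred, so a list-wide difference in width enters both counts. Of the 1463, 370 had ER under both hormones (25.3%, against 11.5% of all regions). ER regions had median log2 width ratios of 0.13 and 0.33, and regions without ER 0.0011 and 0.22. The largest widening was on chromosome 16 (4643810 to 4645278), from 576 and 354 bp with Dex to 1468 and 1271 bp with Dex+E2, and the next on chromosome 7 (105531673 to 105532520), from 251 and 301 bp to 847 and 793 bp. Both overlapped ER in all 4 lists with E2 or Dex+E2. The largest narrowing, on chromosome 15 (66829768 to 66830416), went from 648 and 548 bp to 251 and 509 bp. The second, on chromosome 10 (82152464 to 82152946), went from 471 and 481 bp to 371 and 257 bp. Neither of these 2 had ER, and 77.0% of the 4731 regions overlapped no ER list with E2 or Dex+E2.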

How the data were processed

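Per the submitters' processing notes, build mm9 and CASAVA 1.8 were used. Which program called the sites, against which control, is not stated in the labels. Per the file headers, the authors deposited for each site a signal (highest and average tag density) and a z-score, the authors' score. Coordinates are printed as listed. Sites overlapping by at least 1 bp were merged into regions; a reproducible site overlapped in both lists of a treatment. Percentiles were computed within lists or, at regions of all 4 lists, among those regions. Shares carry exact (Clopper-Pearson) 95% intervals, without a test. Rank and width were tested with limma 3.58.1 (R 4.3.3) without replicate block. The rank fit was checked on simulated data with 1 spread for all regions and independent lists. Real regions differ in spread, so the check does not show how many true changes the fit would miss here. The lists do not name genes, and no mm9 sequence or annotation was used here. Named sites follow a fixed rule: the 8 strongest gained, the 3 strongest gained without ER, the 3 strongest lost, the 5 largest rises and falls of rank and the 2 largest width changes each way among regions with separated treatments. Members, classes and rule were chosen with earlier results of these data known. Alternatives were reciprocal overlap of 50%, equal list lengths, a z-score of at least 15, other density measures, a replicate block and leaving out each list. Those for the rank change at ER regions were chosen after seeing the data. Python 3.11.15, NumPy 2.4.6, SciPy 1.17.1, pandas 2.3.3 and matplotlib 3.10.9 were used.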

Additional observations from a re-analysis of the deposited data

How the results depend on the processing

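Of the comparison values recomputed under an alternative, 52 kept their sign or call, or stayed within the set tolerance. Another 28 moved beyond it and 1 changed sign, the median width difference without Dex replicate 2 (-1 bp). Some of the 52 could not come out otherwise. The block leaves the differences in sites per list and in median width unchanged. Leaving out a list cannot flip the sign for sites per list, as the shortest Dex+E2 list exceeded the longest Dex list. Under the replicate block, taking each pair of lists alone and averaging, the gained share came to 48.6%, the kept share of Dex sites 92.1%, the rank gap 36.3 points, strong gained sites averaged 313.5 and the ER difference was 12.8 percentage points. With equal numbers of sites the gained and kept shares were 17.9% and 91.2%, with 62 strong gained sites and an ER difference of 55.8 points. A z-score of at least 15 left 122 strong gained sites and an ER difference of 38.9 points, and ER in at least 1 list gave 48.4 points. Where a list that defined reproducible sites was left out, all sites of its partner list were counted instead. Leaving out each list gave gained shares of 25.9 to 47.3%, kept shares of 93.5 to 98.8% (99.5% with all lists), rank gaps of 21.1 to 32.6 points, 108 to 457 strong gained sites, ER differences of 15.1 to 33.5 points, differences in sites per list of 3304.5 to 7155.5, 0 to 178 regions of changed width and median width differences of -1 to 27 bp.

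The rank fit called 50 regions with the replicate block (lowest adjusted p of limma 0.00114), all higher with Dex+E2, 44 of them with ER, and 11 with centred log2 density, all among the 50; the other rank alternatives called 0. The median rank change of ER regions over others, an analysis chosen after seeing the data, was 7.67 to 10.6 points when each list was left out and 11.4 with ER lists of E2 alone. Same-numbered lists deviated together at shared regions (Pearson r 0.24), but the labels give the number no meaning, so it is a hint only. The width fit called 0 regions with the block. The blocked sign test gave an exact p of 0.5 for list length and for width, the smallest 2 pairs allow. The cause of these shifts was not tested. Unknown depth limits every statement on sites missing from a list.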
